A study of Mus musculus with 23 samples.

Results

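The levels of 7 genes were followed in the mouse hippocampus: Nrsn2, which encodes neurensin 2 and is the gene named as knocked out in this study, its paralog Nrsn1, and 5 genes that lie close to Nrsn2 on chromosome 2, namely Sox12, Zcchc3, Rbck1, Tbc1d20 and Csnk2a1. They are 7 of the 39017 genes in the deposited tables and were chosen by name, for identity and position. Bulk poly(A) RNA was sequenced from hippocampi in 4 groups of 5 libraries each: Nrsn2-KO after chronic social defeat stress (CSDS), Nrsn2-KO control, wild type (WT) after CSDS and WT control. In CSDS a mouse was exposed daily, on 10 days, to a 5 min attack by a CD-1 aggressor it had not met and housed next to it, behind a see-through divider, between attacks. A further 3 libraries, 10B and 11 labelled Nrsn2-KO and 9B labelled WT, carry a title and a treatment label that disagree, and are given as single values. The sources used here do not give the knockout allele, the strain, the sex or the age. They also do not say whether a numbered library is 1 animal, so a p-value reflects the spread among libraries, which may be technical.

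Neurensins are small membrane proteins of vesicles in neurons, and neurensin 1 is found in growing neurites. Sox12 encodes a transcription factor of the SoxC group, to which Sox4 and Sox11 also belong. Zcchc3 encodes a zinc finger protein that binds nucleic acids and assists the sensing of foreign DNA and RNA. Rbck1 encodes HOIL-1, a subunit of the complex that builds linear ubiquitin chains. Tbc1d20 encodes an activator of GTP hydrolysis on the vesicle traffic proteins RAB1 and RAB2, and Csnk2a1 encodes the catalytic alpha subunit of casein kinase 2.

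In mm10, Nrsn2 lies on the minus strand of chromosome 2, from 152368755 to 152376638, with 3 exons and an exon length of 1455 bp in GENCODE. Sox12 and Zcchc3 lie 17.0 and 35.3 kb from it on the side of higher coordinates. Rbck1, Tbc1d20 and Csnk2a1 lie 36.1, 54.8 and 86.9 kb from it on the other side, so that the 6 genes span 188 kb. Nrsn1 lies on the minus strand of chromosome 13, from 25252040 to 25270502. Nrsn2 shares 241 bp of exon with Gm14164, a non-coding transcript on the opposite strand. The libraries were made with a kit that does not keep strand, so reads from the shared stretch cannot be assigned to either gene, and the level of Nrsn2 is uncertain to that extent. None of the other 6 genes overlapped another gene of the tables.

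The 250 bases before the RefSeq start of 4 of the genes are shown, those of the 2 neurensins because their levels are set against each other, and those of Rbck1 and Tbc1d20 because both were higher after CSDS in WT. They come from RefSeq on GRCm38.p6, are written 5′ to 3′ on the strand of the gene, and all 7 genes had an entry. RefSeq and GENCODE starts differ for some of these genes. The Nrsn1 stretch lies wholly inside the GENCODE gene, 25252040 to 25270502, so it is not upstream of the GENCODE start. The Nrsn2 and Rbck1 stretches reach a short way into their GENCODE genes. Capitals mark the GC box GGGCGG on either strand and the E-box CACGTG. The regions are chr2:152376606-152376855 (minus strand) for Nrsn2, chr13:25269997-25270246 (minus strand) for Nrsn1, chr2:152332640-152332889 (minus strand) for Rbck1, where a second start is also listed, and chr2:152293578-152293827 (plus strand) for Tbc1d20.
Nrsn2: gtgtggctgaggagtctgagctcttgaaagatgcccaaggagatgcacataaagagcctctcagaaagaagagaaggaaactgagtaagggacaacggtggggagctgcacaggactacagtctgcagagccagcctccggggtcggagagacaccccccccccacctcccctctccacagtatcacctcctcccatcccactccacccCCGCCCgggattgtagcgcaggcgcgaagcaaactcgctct
Nrsn1: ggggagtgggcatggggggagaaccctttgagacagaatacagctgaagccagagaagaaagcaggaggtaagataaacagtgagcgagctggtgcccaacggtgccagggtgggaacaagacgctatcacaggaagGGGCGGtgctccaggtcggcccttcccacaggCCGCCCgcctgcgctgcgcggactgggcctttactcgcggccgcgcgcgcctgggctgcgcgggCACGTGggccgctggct
Rbck1: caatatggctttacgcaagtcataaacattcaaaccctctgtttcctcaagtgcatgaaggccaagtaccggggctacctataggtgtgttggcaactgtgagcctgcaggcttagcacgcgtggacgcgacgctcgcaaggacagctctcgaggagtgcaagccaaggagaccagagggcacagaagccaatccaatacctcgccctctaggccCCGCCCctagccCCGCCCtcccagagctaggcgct
Tbc1d20: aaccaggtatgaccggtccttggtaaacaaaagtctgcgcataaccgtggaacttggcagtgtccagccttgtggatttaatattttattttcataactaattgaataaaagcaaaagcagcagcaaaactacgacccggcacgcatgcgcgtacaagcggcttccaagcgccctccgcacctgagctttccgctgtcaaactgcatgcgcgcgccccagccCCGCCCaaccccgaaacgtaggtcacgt
The Nrsn2 stretch had 9 CpG dinucleotides and 59.6% G or C, and the Nrsn1 stretch had 20 CpG and 66.4%. The median of 32851 mouse promoter stretches of this length was 6 CpG and 52.4%. The Nrsn2 stretch held 1 GC box and the Nrsn1 stretch 2, and 32.7% of all stretches hold at least 1. The Nrsn1 stretch held 1 E-box, and 6.02% of all stretches hold it. In the Nrsn2 stretch the letters of the E-box were not found.

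Sequencing depth, worked out from the steps between small values of single-exon genes, was 25.78 to 55.71 M reads per library. Markers of hippocampal subfields such as Prox1 and Wfs1 were present in all libraries, with a summed level of 129 to 154 RPKM over 7 genes (reads per kilobase of gene, scaled to library size). Control library 10 of each genotype stood apart: Xist, the RNA of the inactive X chromosome, was at 48.2 RPKM in Nrsn2-KO control 10 and 56.5 RPKM in WT control 10, against at most 0.0618 RPKM in the other 18 grouped libraries. The Y-linked Ddx3y was at 0.499 RPKM in Nrsn2-KO control 10 and 0.163 RPKM in WT control 10. In the other 18 grouped libraries it was at 9.66 to 13.0 RPKM. No CSDS library had the pattern of control 10, so CSDS and control groups were not balanced for it. Nrsn2-KO libraries 10B and 11 held both Xist, at 1.45 and 1.60 RPKM, and Ddx3y, at 8.75 and 9.99 RPKM. No 2 libraries of a group were as close as counting noise allows. The closest pair, WT CSDS libraries 1 and 5, differed by 2.14 times the counting variance, and the pairs with Nrsn2-KO control 10 by 11.6 to 14.4 times.

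Among the 7 genes, Nrsn1 was the most abundant per length of gene, with a mean of 80.0 ± 6.63 RPKM (SD, n = 20). Nrsn2 followed with 31.1 ± 2.91 RPKM, above 88.5% of the 18263 genes measured at a mean of 0.5 RPKM or more. Csnk2a1 averaged 17.5 ± 0.428 RPKM, Rbck1 15.1 ± 0.728 RPKM and Tbc1d20 13.2 ± 0.780 RPKM. Sox12 averaged 3.93 ± 0.236 RPKM and Zcchc3 3.05 ± 0.243 RPKM. Each gene was above the next in 23 of 23 libraries, so no neighbours in this order exchanged places. In estimated reads per library, Zcchc3 had the fewest with 234 to 541, Nrsn2 had 1180 to 2605 and Nrsn1 had 5421 to 12825. All 7 passed the filter on low values, a mean of at least 0.5 RPKM over the libraries compared.

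Nrsn2 mRNA was present in every library labelled Nrsn2-KO, and its group means there were above those of WT. Nrsn2 stood at 33.7, 37.4, 35.5, 32.0 and 32.0 RPKM in Nrsn2-KO CSDS libraries and at 32.3, 31.4, 31.4, 28.0 and 33.1 RPKM in Nrsn2-KO controls. In WT it stood at 31.6, 28.4, 28.1, 27.3 and 33.3 RPKM after CSDS and at 30.4, 31.5, 25.3, 28.6 and 30.0 RPKM in controls. The groups overlapped in both conditions, and the highest single library was a Nrsn2-KO one. The 3 libraries of conflicting label lay in the same range, at 34.8 RPKM in Nrsn2-KO 10B, 32.8 RPKM in Nrsn2-KO 11 and 30.1 RPKM in WT 9B. A value over the whole gene does not show whether the transcript was altered, and exon-level data were not analysed here.

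On the scale of log2(RPKM + 0.5), Nrsn2 in controls was 0.10 ± 0.06 (SE, n = 5 each) above WT in libraries labelled Nrsn2-KO, with a 95% interval of -0.04 to 0.24 and an adjusted p of 0.481 by limma-trend with Benjamini-Hochberg adjustment over all genes tested. After CSDS the difference was 0.20 ± 0.06, with an interval of 0.06 to 0.33, an unadjusted p of 0.00837 and an adjusted p of 0.123, also by limma. All 5 Nrsn2-KO CSDS libraries were above the WT CSDS mean, and 3 were above every WT CSDS library. Over both conditions the difference was 0.15 ± 0.05, with an interval of 0.05 to 0.25 and a limma adjusted p of 0.0565. That value crossed the threshold of 0.05 in 3 of 20 fits that left out 1 library: without Nrsn2-KO control 9 (adjusted p = 0.0261 by limma), without WT CSDS 5 (0.0364) or without WT control 7 (0.0368). It also crossed when the 3 libraries of conflicting label were counted as controls (0.0173) or as CSDS (0.0218). The other fits that left out 1 library gave adjusted p up to 0.103 by limma. Leaving out control 10 of both genotypes gave 0.0763. In none of these fits was Nrsn2 lower in libraries labelled Nrsn2-KO. The label is therefore written below as the KO label, and each direction drawn from it is a direction between labels.

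Gm14164, the opposite-strand overlap partner, averaged 5.51 ± 0.439 RPKM in KO-label CSDS libraries, 5.10 ± 0.352 RPKM in KO-label controls, 4.86 ± 0.666 RPKM in WT CSDS libraries and 4.98 ± 0.471 RPKM in WT controls (SD, n = 5 each). After CSDS it was 0.17 ± 0.08 (log2, SE) above WT in KO-label libraries, with a limma adjusted p of 0.296. Whether reads of the shared exon stretch carry part of the Nrsn2 value was not tested.

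Nrsn1, the paralog, was lower in KO-label libraries than in WT. After CSDS it stood at 76.4, 80.8, 77.2, 80.4 and 72.6 RPKM in KO-label libraries, against 92.3, 83.0, 90.1, 86.6 and 90.0 RPKM in WT libraries. The 2 ranges did not overlap, which held for this gene alone of the 7, and 5.49% of all genes tested had such separate ranges. The log2 difference was -0.19 ± 0.04 (SE, n = 5 each), with an interval of -0.27 to -0.11 and an adjusted p of 0.0275 by limma. In controls Nrsn1 stood at 74.9, 78.5, 67.9, 70.7 and 76.1 RPKM in KO-label libraries, against 82.5, 79.1, 74.1, 79.9 and 85.9 RPKM in WT libraries. No gene of the 7 had separate ranges in controls, beside 4.95% of all genes tested. All 5 KO-label controls of Nrsn1 were below the WT mean, 2 were below every WT control, and the difference of -0.12 ± 0.05 did not pass (adjusted p = 0.255 by limma).

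Over both conditions the Nrsn1 difference was -0.16 ± 0.03, with an adjusted p of 0.00396 by limma, and it stayed past the threshold in 20 of 20 fits that left out 1 library. The call after CSDS alone was less firm: it stayed without KO-label CSDS 2, KO-label CSDS 4 or WT CSDS 2 and was lost without any of the other 7 libraries, with adjusted p up to 0.073 by limma. Markers of excitatory neurons summed to 1114 to 1175 RPKM over 6 genes in KO-label CSDS libraries and to 1194 to 1252 RPKM in WT CSDS libraries. None of these 6 was called after CSDS, beside 1.91% of all genes. Over both conditions Camk2a and Slc17a7 were lower under the KO label, 2 of 6 beside 6.72% of all genes. The summed markers of hippocampal subfields lay the other way, at 140 to 152 RPKM over 7 genes in KO-label CSDS libraries and 129 to 137 RPKM in WT CSDS libraries. Of these 7, only Bok was called after CSDS, higher under the KO label, beside 1.91% of all genes. Their median log2 difference after CSDS was 0.02, beside 0.00 over all genes. Bok and C1ql2 were higher over both conditions, 2 of 7 beside 6.72% of all genes, and in controls, 2 of 7 beside 1.14%. After CSDS, of 5 markers of meninges and fibroblasts, Col1a1, Dcn and Lum were lower, beside 1.91% of all genes called, and the list summed to 22.3 to 29.2 RPKM in KO-label CSDS libraries, against 31.2 to 41.6 RPKM in WT CSDS libraries. Of 5 genes of red blood cells, Hbb-bs and Hbb-bt were lower, with sums of 178 to 356 RPKM in KO-label CSDS libraries, against 559 to 2807 RPKM in WT CSDS libraries. No marker of these lists was at 0 in a library, and their part in the Nrsn1 difference was not tested. In bulk tissue, fewer cells of a type and less RNA per cell cannot be told apart.

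**Figure D1:**
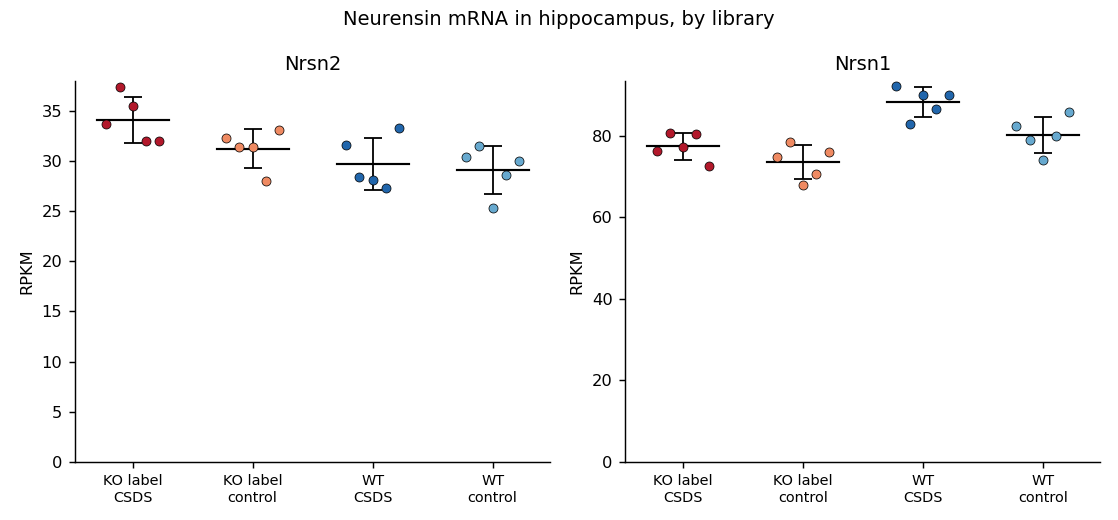
Nrsn2 (left) and Nrsn1 (right) in RPKM, 1 point per library, with the mean and SD of each group of 5 as lines. Nrsn2 overlaps between the KO label and WT, with means of 34.1 and 29.7 RPKM after CSDS, while Nrsn1 after CSDS is at 72.6 to 80.8 RPKM under the KO label and at 83.0 to 92.3 RPKM in WT.

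Because Nrsn2 and Nrsn1 differed in opposite directions, their ratio within each library was computed, a measure chosen after both levels were known and therefore given with no test. The Nrsn2 to Nrsn1 ratio of RPKM was 0.441, 0.463, 0.460, 0.399 and 0.440 in KO-label CSDS libraries, against 0.342, 0.342, 0.312, 0.315 and 0.369 in WT CSDS libraries. Every KO-label value lay above every WT value there, and the means, 0.441 and 0.336, stood 1.31-fold apart. In controls the ratio was 0.431, 0.401, 0.462, 0.397 and 0.435 in KO-label libraries, against 0.369, 0.399, 0.341, 0.357 and 0.349 in WT libraries. Only KO-label control 9 (0.397) and WT control 7 (0.399) crossed, and the means, 0.425 and 0.363, stood 1.17-fold apart. The 3 libraries of conflicting label had ratios of 0.443 in KO-label 10B, 0.422 in KO-label 11 and 0.372 in WT 9B, each nearer to its own genotype label. A ratio of this kind does not show which of the 2 genes moved.

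**Figure D2:**
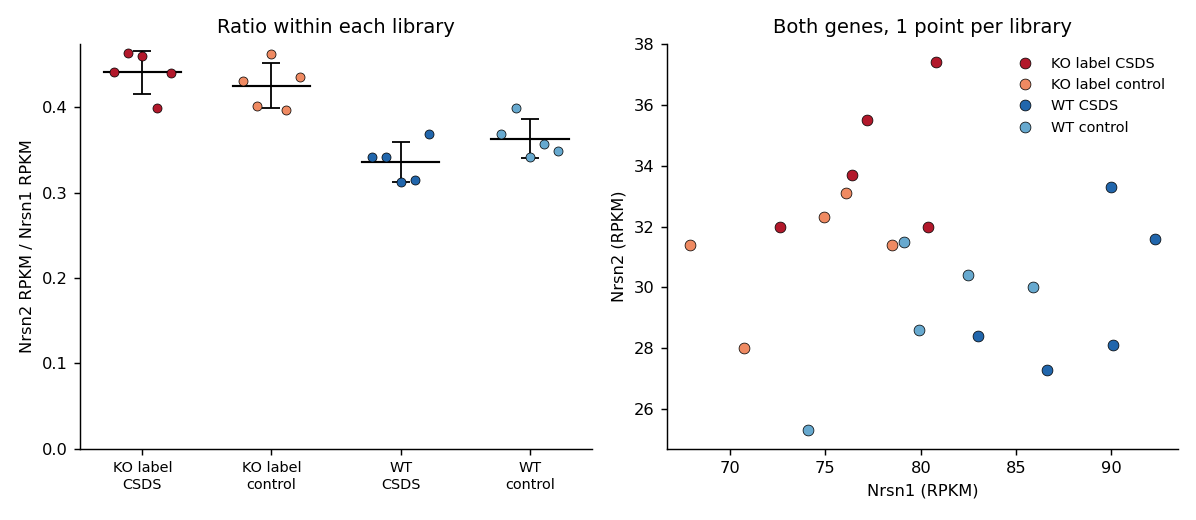
The Nrsn2 to Nrsn1 ratio by group (left, 1 point per library, mean and SD as lines) and both genes plotted against each other in RPKM (right, axes not starting at 0). The 10 KO-label libraries lie at ratios of 0.397 to 0.463 and the 10 WT libraries at 0.312 to 0.399.

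After CSDS, Nrsn1 rose in WT. Its means were 88.4 ± 3.63 RPKM in WT CSDS libraries and 80.3 ± 4.37 RPKM in WT controls (SD, n = 5 each), and 4 of 5 CSDS libraries were above every control. The log2 difference was 0.14 ± 0.04 (SE), with an adjusted p of 0.0361 by limma. That call stayed without WT CSDS 2, WT control 6 or WT control 10 and was lost without any of the other 7 libraries, with adjusted p up to 0.0829. It was also lost with TPM scaling (0.09, adjusted p = 0.113 by limma), with no filter on low values (0.0594) and with the libraries of conflicting label counted as CSDS (0.113). TPM scaling moved the log2 changes of all genes in this WT comparison by a median of -0.052. In KO-label libraries the means were 77.5 ± 3.32 RPKM after CSDS and 73.6 ± 4.26 RPKM in controls, a difference of 0.07 ± 0.04 with an adjusted p of 0.294 by limma. The difference between these 2 effects, KO label minus WT, was -0.06 ± 0.06, with an interval of -0.20 to 0.07 and an adjusted p of 0.74 by limma. For Nrsn1 the authors' deposited table gives a log2 change of -0.13 in WT and a false discovery rate of 0.0307, as control over CSDS, so a negative value there means higher after CSDS. The deposited control means include the libraries of conflicting label. This and the other deposited values below may therefore rest on other controls than the 5 per genotype used here.

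Nrsn2 was not called for CSDS in either genotype. Its difference was 0.13 ± 0.05 (log2, SE, n = 5 each) in KO-label libraries, with an interval of 0.00 to 0.25 and an adjusted p of 0.149 by limma. In WT it was 0.03 ± 0.07, with an interval of -0.12 to 0.18 and an adjusted p of 0.797, and its sign turned without WT CSDS 5 (-0.01) or without WT control 8 (-0.02). The difference of the 2 effects was 0.10 ± 0.09, with an interval of -0.09 to 0.29 and a limma adjusted p of 0.733. The authors' deposited table gives false discovery rates of 0.240 in KO-label libraries and 0.893 in WT for Nrsn2.

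Of the 7 genes, 0 passed the threshold between KO label and WT in controls, where 1.14% of 18297 genes tested did. One passed after CSDS (Nrsn1), beside 1.91% of all genes, and the same 1 passed over both conditions, beside 6.72%. Between CSDS and control, 1 passed in KO-label libraries (Tbc1d20), beside 15.0% of all genes, and 3 passed in WT (Nrsn1, Rbck1 and Tbc1d20), beside 22.4%. For the difference of the CSDS effects 0 of 7 passed, beside 0.148% of all genes. At an unadjusted limma p under 0.05, between KO label and WT, were 1 of 7 in controls (Nrsn1), beside 2806 of 18297 genes tested. After CSDS 2 were, beside 3302 of 18225, and over both conditions 2, beside 3765 of 18263. Between CSDS and control there were 5 under the KO label, beside 5536 of 18259, and 4 in WT, beside 6616 of 18274. For the difference of the effects there were 0, beside 2092 of 18263. The median log2 change of the 7 genes after CSDS was 0.09 in KO-label libraries and 0.11 in WT, beside -0.01 and 0.00 over all genes tested. These comparisons share libraries with each other, so their values are set side by side and not counted as separate evidence.

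**Figure D3:**
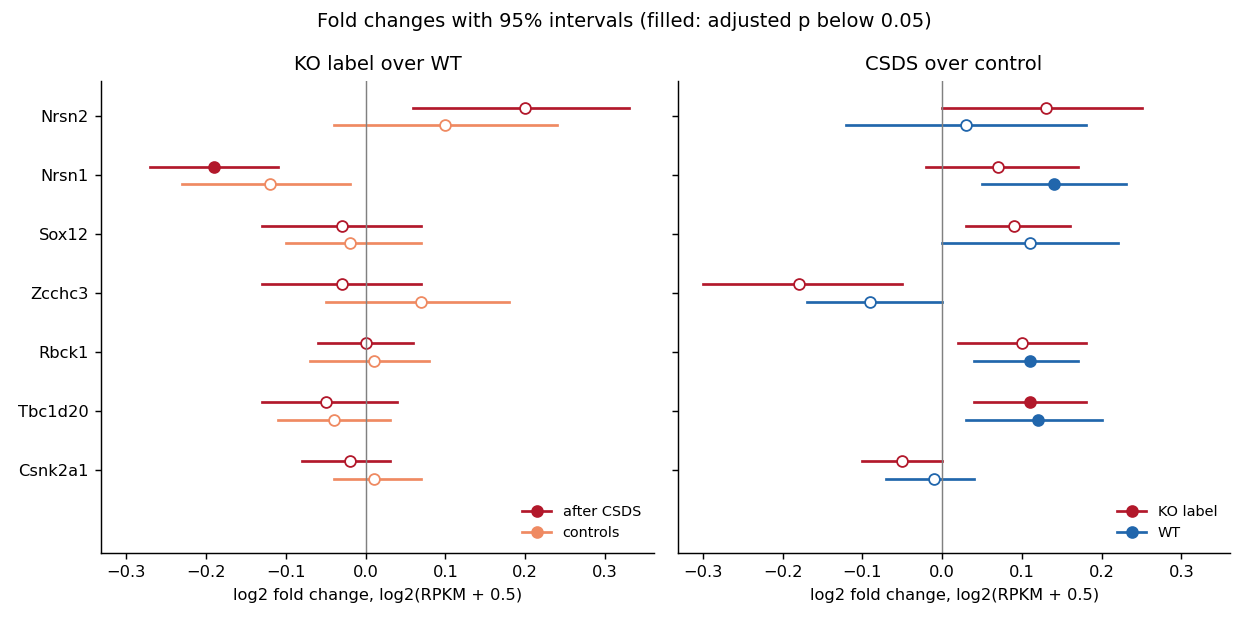
Log2 fold changes of the 7 genes on the log2(RPKM + 0.5) scale with 95% intervals, KO label over WT (left) and CSDS over control (right), with filled points where the adjusted p is below 0.05. Nrsn1 is the filled point left of 0 after CSDS (-0.19), and Rbck1 and Tbc1d20 lie right of 0 for CSDS under the KO label (0.10 and 0.11) and in WT (0.11 and 0.12).

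Rbck1 and Tbc1d20, neighbours on chromosome 2 on the Csnk2a1 side, both rose after CSDS in WT. Rbck1 stood at 16.0, 15.1, 15.5, 16.1 and 15.7 RPKM in WT CSDS libraries, against 14.7, 15.1, 14.6, 14.0 and 14.4 RPKM in WT controls. Its log2 difference was 0.11 ± 0.03 (SE), with an adjusted p of 0.0209 by limma, and it missed the threshold only without WT CSDS 1 (0.0511) among the 10 fits that left out 1 library. With TPM scaling, which moved all genes in this comparison by a median of -0.052, it was 0.05 (adjusted p = 0.262 by limma). With the libraries of conflicting label counted as CSDS it was 0.09 (0.113). The authors' deposited table gives Rbck1 false discovery rates of 0.122 in KO-label libraries and 0.0553 in WT. In KO-label libraries Rbck1 stood at 15.8, 15.6, 16.4, 15.0 and 15.6 RPKM after CSDS, against 14.3, 13.8, 14.6, 15.1 and 15.3 RPKM in controls. Here 4 of 5 CSDS libraries were above every control, with a difference of 0.10 ± 0.03 and an adjusted p of 0.0786 by limma, which was 0.0381 without KO-label control 10 and 0.0463 with median-of-ratios scaling. Between KO label and WT, Rbck1 differed after CSDS by 0.00 ± 0.03, with an interval of -0.06 to 0.06.

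Tbc1d20 passed the threshold in both genotypes. In KO-label libraries it stood at 14.2, 13.5, 13.0, 13.2 and 13.8 RPKM after CSDS, against 13.1, 12.1, 12.1, 12.7 and 12.4 RPKM in controls, a log2 difference of 0.11 ± 0.03 (SE) with an adjusted p of 0.0423 by limma. WT values were 15.0, 13.1, 14.0, 13.6 and 14.4 RPKM after CSDS, against 12.8, 12.2, 13.6, 12.7 and 13.0 RPKM in controls, a difference of 0.12 ± 0.04 with an adjusted p of 0.0491 by limma. In each genotype 4 of 5 CSDS libraries were above every control. Both calls lie close to the threshold: under the KO label the call stayed without CSDS 3, control 6 or control 10 and was lost without any of the other 7 libraries, and in WT it stayed without CSDS 2 or control 8 and was lost without any of the other 8. With TPM scaling neither call held, at 0.10 (adjusted p = 0.172 by limma) under the KO label and 0.07 (0.243) in WT. That scaling moved all genes by a median of -0.011 under the KO label and -0.052 in WT. Neither call held without the trend, without a filter or with the libraries of conflicting label counted as CSDS. The authors' deposited table gives Tbc1d20 false discovery rates of 0.0691 in KO-label libraries and 0.0573 in WT.

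Sox12 and Zcchc3, on the other side of Nrsn2, gave differences of opposite sign after CSDS that did not pass in the main fits. Sox12 stood at 3.97, 4.00, 4.17, 3.99 and 4.06 RPKM in KO-label CSDS libraries, against 3.62, 3.71, 3.81, 3.80 and 3.81 RPKM in KO-label controls. The 2 ranges did not overlap, as was the case for 1 of the 7 genes and 12.9% of all genes in that comparison, and the difference was 0.09 ± 0.03 (log2, SE) with an adjusted p of 0.0594 by limma. In WT it was 0.11 ± 0.05 with an adjusted p of 0.147, which was 0.027 without WT CSDS 2, the lowest of its group at 3.64 RPKM against 4.17 to 4.39 RPKM in the other 4. Across the alternatives run, the limma adjusted p under the KO label ran from 0.0413 (median-of-ratios scaling) to 0.17. In WT it ran from 0.027 to 0.433. Exact two-sided permutation tests gave unadjusted p of 0.00794, the smallest possible, under the KO label and 0.0714 in WT.

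Zcchc3 stood at 2.62, 2.75, 3.13, 2.94 and 2.82 RPKM in KO-label CSDS libraries, against 3.44, 2.92, 3.29, 3.55 and 3.27 RPKM in KO-label controls. All 5 were below the control mean, with a difference of -0.18 ± 0.06 (log2, SE) and an adjusted p of 0.0557 by limma, which was 0.0395 without KO-label CSDS 3 and 0.0239 without KO-label control 7. In WT it stood at 2.77, 2.93, 3.00, 2.93 and 2.92 RPKM after CSDS, against 3.06, 3.32, 3.24, 3.01 and 3.00 RPKM in controls. All 5 CSDS values lay at or below the lowest control, the 2 ranges touching at 3.00 RPKM as printed, and 17.1% of all genes had separate ranges there. The WT difference was -0.09 ± 0.04, with an adjusted p of 0.124 by limma. Across the alternatives run, the limma adjusted p in WT ran from 0.042 (TPM scaling) to 0.24. Under the KO label it ran from 0.0117 (all 4 groups in 1 fit) to 0.122. Exact two-sided permutation tests gave unadjusted p of 0.0238 under the KO label and 0.00794 in WT.

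Csnk2a1 varied least among the 7, with a coefficient of variation of 2.44% over 20 libraries, against 9.36% for Nrsn2 and 8.29% for Nrsn1. It averaged 17.2 ± 0.260 RPKM in KO-label CSDS libraries and 17.8 ± 0.362 RPKM in KO-label controls (SD, n = 5 each), a log2 difference of -0.05 ± 0.02 (SE) with an adjusted p of 0.193 by limma. WT means were 17.5 ± 0.583 RPKM after CSDS and 17.6 ± 0.285 RPKM in controls, with an adjusted p of 0.751. For the KO label against WT, the 5 neighbours of Nrsn2 had log2 differences of -0.05 to 0.00 after CSDS and of -0.04 to 0.07 in controls. None of these 5 was called, beside 1.91% of all genes after CSDS and 1.14% in controls. Their 95% intervals all lay within -0.13 and 0.18.

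**Figure D4:**
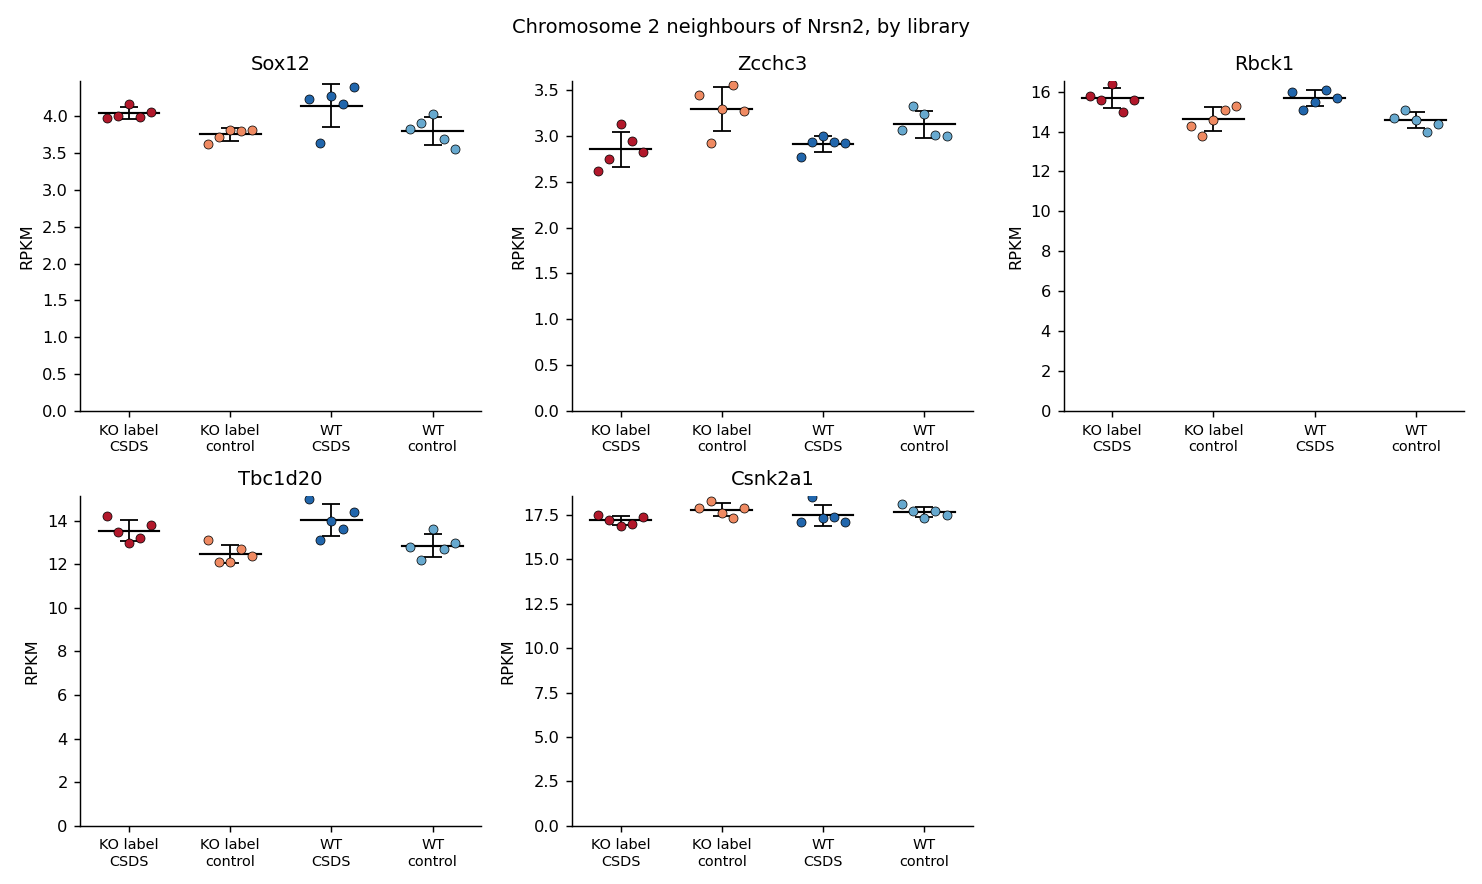
The 5 neighbours of Nrsn2 in RPKM, 1 point per library, with the mean and SD of each group of 5 as lines. Rbck1 averages 15.7 RPKM after CSDS and 14.6 RPKM in controls under the KO label, and 15.7 and 14.6 RPKM in WT, while Csnk2a1 stays between 16.9 and 18.5 RPKM in the 20 libraries.

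Lists of other cell types moved with CSDS beside these changes, where 15.0% of all genes were called under the KO label and 22.4% in WT. In WT, 5 of 5 red blood cell genes were higher, with sums of 559 to 2807 RPKM after CSDS against 206 to 297 RPKM in controls. In KO-label libraries, 5 of 5 endothelial markers were lower, with sums of 44.3 to 49.3 RPKM after CSDS against 59.3 to 67.2 RPKM in controls, and so were 4 of 5 markers of meninges and fibroblasts, with sums of 22.3 to 29.2 RPKM after CSDS against 39.1 to 55.1 RPKM in controls. Among interneuron markers 3 of 8 were higher under the KO label (Gad1, Gad2 and Slc32a1), with sums of 509 to 542 RPKM after CSDS against 505 to 587 RPKM in controls. In WT, 2 of 5 endothelial markers were lower (Cldn5 and Flt1), with sums of 46.4 to 56.2 RPKM after CSDS against 55.0 to 70.4 RPKM in controls. Of 6 astrocyte markers 3 were called in each genotype, with Aldoc higher and Aqp4 lower in both, and each other list had at most 2 called markers per genotype. Of 5 choroid plexus markers 0 were called in either genotype, while their sums varied widely between libraries. These sums ran from 22.1 to 4863 RPKM in WT controls and from 2875 to 3708 RPKM in WT CSDS libraries. Under the KO label they ran from 573 to 4484 RPKM in controls and from 500 to 3754 RPKM after CSDS. No marker of these lists was at 0 in any library, and their part in the differences of Rbck1, Tbc1d20, Sox12, Zcchc3 and Nrsn1 was not tested.

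The wider neighbourhood was read in the same fits. Of 88 genes within 1 Mb of Nrsn2, 40 were measured in controls, and 3 of them were called between KO label and WT, or 7.50% beside 1.14% of all genes. All 3 were higher under the KO label: Mcts2 by 0.33 ± 0.04 (log2, SE; adjusted p = 0.00908 by limma), Ccm2l by 0.39 ± 0.07 (0.0321) and Pofut1 by 0.23 ± 0.04 (0.0376). Mcts2 is a retrogene related to Mcts1, and Pofut1 encodes an enzyme that adds fucose to Notch. After CSDS, 0 of 39 were called, beside 1.91% of all genes. At an unadjusted limma p under 0.05 were 8 of 39, beside 3302 of 18225 genes tested, and 11 of 40 in controls, beside 2806 of 18297. The 3 genes called in controls had differences after CSDS of 0.12 for Mcts2, -0.09 for Ccm2l and -0.06 for Pofut1. Without control 10 of both genotypes, a setting added after the data were seen, 1 of 40 was called in controls, Mcts2 (0.31 ± 0.05, adjusted p = 0.0268 by limma), beside 1.48% of all genes. Over both conditions 4 of 40 were called, namely Mcts2, Pdrg1 and Asxl1 higher and Scrt2 lower, 10.0% beside 6.72% of all genes. Within 5 Mb, 6 of 156 measured genes were called in controls, 3.85% beside 1.14% of all genes, and 1 of 154 after CSDS, 0.649% beside 1.91%. Over both conditions 10 of 155 were called, 6.45% beside 6.72%. None of the 5 near neighbours of Nrsn2 was among them.

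**Figure D5:**
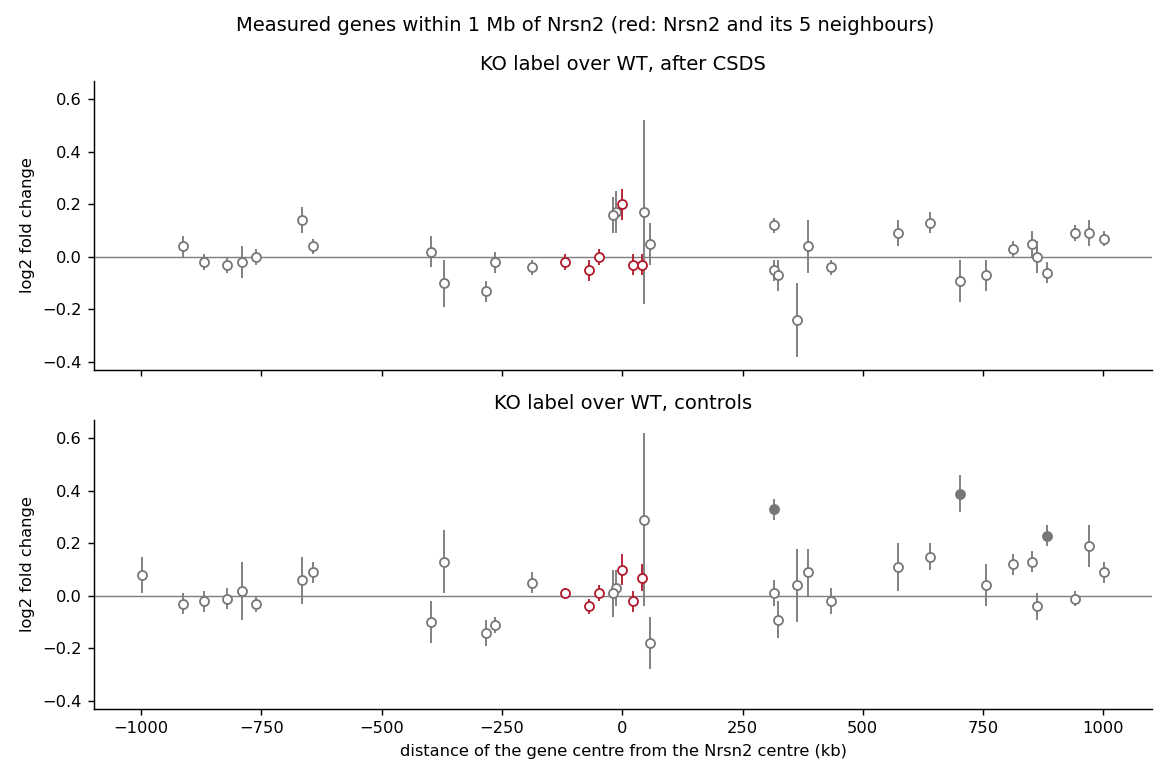
Log2 fold change of KO label over WT for the measured genes within 1 Mb of Nrsn2, against distance in kb towards higher coordinates, after CSDS (top) and in controls (bottom), with SE as bars and filled points where the adjusted p is below 0.05. In controls the filled points are Mcts2 at 315 kb, Ccm2l at 701 kb and Pofut1 at 883 kb, and after CSDS there is none.

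The partners of the neighbours were looked at by list. Of the 6 genes of the linear ubiquitin complex and its deubiquitinases, 3 passed for CSDS in WT, where 22.4% of all genes did: Rbck1 and Otulin, which removes linear chains, were higher, Otulin by 0.16 ± 0.04 (log2, SE; adjusted p = 0.0140 by limma), and Spata2, an adaptor of the deubiquitinase CYLD, was lower, at -0.17 ± 0.03 (0.00571). In KO-label libraries 1 of 6 passed, beside 15.0% of all genes, Rnf31, which encodes the catalytic subunit HOIP, with 0.12 ± 0.03 (0.0318). The third subunit, Sharpin, had 0.06 ± 0.05 under the KO label and 0.07 ± 0.04 in WT and was called in neither. The median of the 6 was 0.06 under the KO label and 0.07 in WT, beside -0.01 and 0.00 over all genes. None of the 6 was called for the difference of the effects, beside 0.148% of all genes.

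Of the 3 SoxC genes, Sox4 passed for CSDS in both genotypes, 1 of 3 beside 15.0% of all genes under the KO label and 22.4% in WT, and its sign was opposite to that of Sox12. Sox4 fell after CSDS by 0.38 on the log2 scale in KO-label libraries (adjusted p = 0.00393 by limma) and by 0.34 in WT (0.0237). Sox11 had differences of -0.34 ± 0.11 under the KO label (0.0574) and -0.27 ± 0.13 in WT (0.146), against 0.09 and 0.11 for Sox12. Sox4 averaged 2.96 RPKM and Sox11 1.34 RPKM over 20 libraries, both below Sox12.

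The list of Tbc1d20, its substrates and the RAB18 module holds 7 genes, of which 2 passed between KO label and WT after CSDS, beside 1.91% of all genes. Rab2a, a regulator of traffic between endoplasmic reticulum and Golgi, was lower under the KO label after CSDS, at -0.19 ± 0.03 (log2, SE; adjusted p = 0.00612 by limma), and over both conditions, at -0.15 ± 0.02 (6.62e-05). Rab1b, a substrate of the same step, was lower after CSDS, at -0.11 ± 0.02 (0.0352), and over both conditions, at -0.09 ± 0.02 (0.00398). Over both conditions 2 of 7 passed, beside 6.72% of all genes. For CSDS under the KO label 3 of 7 passed, beside 15.0% of all genes: Tbc1d20 and Rab3gap2, a subunit of the RAB18 exchange factor, were higher and Rab18 was lower, with 0.12 ± 0.03 for Rab3gap2 (0.0405) and -0.11 ± 0.03 for Rab18 (0.0271). For CSDS in WT 2 of 7 passed, beside 22.4% of all genes: Tbc1d20 and Rab1b were higher, Rab1b by 0.09 ± 0.03 (0.0302). None of the 7 was called for the difference of the CSDS effects, beside 0.148% of all genes.

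Of the 7 genes of the list of Zcchc3 and its partners in nucleic acid sensing, 6 were measured above the filter, and 1 passed in any CSDS comparison, beside 15.0% of all genes: Trim25, a ubiquitin ligase, was lower after CSDS under the KO label, at -0.30 ± 0.07 (adjusted p = 0.0163 by limma), against -0.06 ± 0.10 in WT (0.671). Of the 3 casein kinase 2 subunits none passed in any of the 6 comparisons, where 0.148% to 22.4% of all genes did. In each, 0 of 3 had an unadjusted p under 0.05 by limma, beside 2092 of 18263 to 6616 of 18274 genes tested. An exact two-sided permutation test gave 0.0238, unadjusted, for Csnk2a1 after CSDS under the KO label. Csnk2b, the regulatory subunit, averaged 22.1 RPKM and Csnk2a2, the other catalytic subunit, 6.82 RPKM. Without control 10 of both genotypes, Tbc1d20 in WT was no longer called for CSDS (0.12 ± 0.04, adjusted p = 0.0666 by limma). Rbck1 was called in that setting under the KO label (0.12 ± 0.03, 0.0381). For genes of these lists outside the 7, the setting was added after the data were seen. Among them, Spata2 was called under the KO label (-0.14 ± 0.03, 0.0185). The other calls of these partner lists that use control libraries were kept.

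Genes whose level followed that of Nrsn2 most closely were ranked by Pearson correlation of log2(RPKM + 0.5) after centring each group on its mean, over 20 libraries and 8513 genes. The first 6 were Gfra1 (r = 0.81), Zfp131 (0.78), Kcnj16 (0.75), Sfxn1 (0.74), Gpr37l1 (0.74) and Hrh3 (0.73). Nrsn1 came at place 125 with r = 0.56, while the chromosome 2 neighbours had r of 0.17 (Rbck1), 0.07 (Sox12), 0.03 (Csnk2a1), -0.03 (Tbc1d20) and -0.21 (Zcchc3). These are descriptions of libraries that share depth and tissue composition, with 20 points each. Between KO label and WT, none of the 6 was called after CSDS, beside 1.91% of all genes, or in controls, beside 1.14%. Over both conditions Hrh3 was called (-0.19 ± 0.05, adjusted p = 0.0177 by limma), 1 of 6 beside 6.72% of all genes. For CSDS under the KO label, Gfra1 (0.22, adjusted p = 0.0256 by limma) and Hrh3 (0.19, 0.0423) were higher, beside 15.0% of all genes called. In WT, Kcnj16 (0.18, 0.0498), Sfxn1 (0.13, 0.0196) and Gpr37l1 (0.28, 0.00340) were higher, beside 22.4% of all genes. Zfp131 was called in neither.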

How the data were processed

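Poly(A) RNA of hippocampi was sequenced as 75 bp single-end reads with a TruSeq V2 kit, per the labels' protocols, and aligned with STAR to mm10, per the submitters' processing notes; the sources used here do not give the STAR version, the counting tool or the annotation. The authors deposited RPKM per library in 1 table per genotype, the group means among them. Per the file headers, the authors' deposited table also holds edgeR results: log2 fold changes (control over CSDS), log2 abundance, a likelihood ratio score, and p-values with false discovery rates. The control means include the 3 libraries of conflicting label.

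From these, log2(RPKM + 0.5) of genes with a mean of at least 0.5 RPKM was fitted with limma-trend (limma 3.58.1, R 4.3.3), two-sided, with Benjamini-Hochberg adjustment at 0.05, for 6 comparisons of 5 libraries per group. Fold changes on this scale understate the change of low genes. The fit was tested on simulated data. The tables were compared across genotypes as deposited. Genes were matched by identifier to GENCODE (37607, all at the deposited coordinates), and promoter stretches come from RefSeq on GRCm38.p6. Depth (25.78 to 55.71 M reads) was estimated from 11982 single-exon genes, with 93.4 to 94.7% of the low values within 0.05 of a whole read. Named were the 7 genes, the called genotype differences within 1 Mb of Nrsn2, the partner lists and the 6 genes most like Nrsn2. The genes and lists were chosen with earlier results of these data known. Alternatives were pseudocounts, filters, scalings, 1 pooled fit, no trend, a replicate block, left-out or added libraries and exact permutation tests.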

Additional observations from a re-analysis of the deposited data

Results flagged for a closer look

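One library lay far from the other 4 of its group in 1 of 28 combinations of gene and group checked: Csnk2a1 in WT CSDS library 2, at 18.5 RPKM, against 17.1 to 17.4 RPKM in the other WT CSDS libraries. The gap passed Dixon's 95% critical value of 0.71 for 5 samples, which chance passes in about 1 of 20 groups. None of the 7 genes was called for a difference in CSDS effect between KO label and WT by the interaction test, beside 0.148% of all genes. The 95% intervals were -0.09 to 0.29 for Nrsn2 and -0.20 to 0.07 for Nrsn1, so this does not show equal effects.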

How the results depend on the processing

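Nrsn2 and Nrsn1 kept their signs between KO label and WT under all alternatives run. Over both conditions Nrsn2 moved past the threshold with the libraries of conflicting label as controls (0.16) or as CSDS (0.15), which made 2 of the 7 genes called each time, and it ranged from 0.13 to 0.17 with 1 library left out, with 1 to 2 genes called. After CSDS its 0.20 had an exact two-sided permutation p of 0.0317, unadjusted, where 0.00794 is the smallest possible, and 0 to 1 genes were called with 1 library left out. Between CSDS and control, Nrsn2 in WT was -0.02 with TPM scaling, which moved all genes there by a median of -0.052. It was -0.02 to 0.06 with 1 library left out. The number of the 7 genes called for CSDS under the KO label was 0 without a filter, with TPM scaling or with the libraries of conflicting label as CSDS, 3 with median-of-ratios scaling or with all 4 groups in 1 fit, 2 without control 10 of both genotypes, and 0 to 2 with 1 library left out. In WT it was 1 without a filter or with TPM scaling, 0 with the libraries of conflicting label as CSDS, and 0 to 4 with 1 library left out. Differences near 0 between KO label and WT changed sign. Rbck1 in controls was -0.01 with median-of-ratios scaling, -0.02 with TPM, -0.01 without control 10 of both genotypes and -0.01 to 0.03 with 1 library left out, and after CSDS it was 0.02 with TPM, 0.01 with the libraries of conflicting label as CSDS and -0.02 to 0.01 with 1 library left out. Csnk2a1 in controls was -0.01 with TPM, and Sox12 in controls was 0.02 with the libraries of conflicting label as controls and -0.04 to 0.00 with 1 library left out. Calls over all genes moved by more than 1.5 times for KO label against WT in controls, to 97 with TPM (209 otherwise), 722 with 1 pooled fit and 978 with the libraries of conflicting label as controls, which also gave 1965 over both conditions (1228 otherwise, 756 with TPM) and 98 for the difference of the effects (27 otherwise). As CSDS, the same libraries left 143 calls under the KO label (2747 otherwise), 1240 in WT (4093 otherwise) and 1 for the difference, which was 41 without trend and 181 without control 10 of both genotypes. With 1 library left out, calls over all genes were 68 to 218 in controls, 205 to 478 after CSDS, 994 to 1543 over both conditions, 1658 to 3668 for CSDS under the KO label, 3077 to 4016 in WT and 16 to 244 for the difference, the last highest without WT control 10, so the all-gene shares printed beside the 7 genes move as much. The cause of these changes was not tested. Library numbers did not meet the rule for pairing KO label and WT, a correlation above 0.1 in every pair: same-number deviations from the group means correlated at 0.21, 0.30 and 0.37 for controls 6, 8 and 10, each best with its own number, and at -0.11 to 0.10 for the other 7 numbers. With the replicate block, Nrsn2 had 0.10 (adjusted p = 0.4 by limma) in controls, 0.20 (0.191) after CSDS and 0.15 (0.0846) over both conditions. Nrsn1 had an adjusted p of 0.103 after CSDS, so that 0 of the 7 genes were called, and 0.01 over both conditions. All-gene calls under the block were 45 in controls, 162 after CSDS (349 otherwise), 957 over both conditions and 23 for the difference. CSDS and control libraries of a genotype share no number, so no block could be fitted there. Depth limits Zcchc3 most, with 234 to 541 estimated reads per library.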
